A study of Mus musculus with 35 samples.

Results

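Moesin (Msn), ezrin (Ezr), radixin (Rdx), merlin (Nf2) and Ahnak are genes of proteins that tie the plasma membrane to the actin cytoskeleton or form a scaffold beneath it. These 5 genes were taken by symbol from the 54354 genes of the deposited table and followed through all 35 libraries of the series. The set was chosen by measured values as well as by function, since the fitted fold changes and calls of some members in each treatment against its controls were known when it was put together. Their values in those comparisons are therefore a description, and nothing is supported with them.

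Ezrin, radixin and moesin are close relatives, together called the ERM proteins. Each has a FERM domain at its start, which binds membrane proteins and phosphoinositides, and an actin-binding tail at its end. In the closed form the tail covers the FERM domain, and phosphorylation of a threonine in the tail keeps the protein open, so that it can bridge the membrane and the cortical actin. Ezrin is the main ERM protein of the intestinal epithelium, where it holds up the microvilli of the brush border, while moesin is best known from leukocytes and endothelium. Merlin carries the same kind of FERM domain, is a tumour suppressor and acts upstream of the Hippo pathway. Ahnak is a giant scaffold protein of repeated units that binds the complex of annexin A2 and S100A10 under the membrane.

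The RNA was that of organoids, spatially organised epithelial cultures, made from mouse colon tumours of a genotype labelled AKP that treated and control libraries share. Palmitic acid, a saturated fatty acid and a building block of ceramides, had been added for 3 libraries labelled batch 1 and 2 labelled batch 2, and 3 control libraries belong to neither batch, so that batch and treatment cannot be told apart. Carmofur, an inhibitor of the ceramidases that break ceramides down, had been added for 15 libraries, which have 12 controls of their own. The stated aim was to see how fatty acid and ceramide levels change the transcripts of these organoids, and the sources used here give no dose, exposure time or organoid line. The RNA values hold no ceramide levels, so the part of ceramides, or of another action of carmofur, in any change was not tested. Nothing in the labels ties the libraries to separate cultures, so the p-values measure only the spread between libraries, which may be technical.

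Total counts per library were 762888 to 3742289 in the palmitic acid experiment, with control 1 the shallowest, and 1663750 to 10609563 in the carmofur experiment. Levels are given as CPM, the counts scaled to library size, after TMM scaling, a correction for library composition made in each experiment apart. A count of 3, the limit that a count of 0 allows, corresponds to 0.292 to 3.87 CPM depending on the library, for counting error only. All 10 epithelial marker genes had counts in every group, and their summed level was 1383 to 1582 CPM in the palmitic acid libraries and 1895 to 3030 CPM in the carmofur libraries. Of 14 mesenchymal markers 2 to 7 had any count in a group, and the fibroblast genes Col1a1, Col1a2, Pdgfrb, Lum and Thy1 were at 0 in every group. The summed level of this list, nearly all from Vim and Fn1, was 65.4 to 108 CPM in the palmitic acid libraries, 27.6 to 99.8 CPM in the carmofur controls and 42.6 to 146 CPM with carmofur. Of 15 immune markers 3 to 7 had any count, with summed levels of 21.9 to 52.2 CPM in the palmitic acid experiment and 7.36 to 166 CPM in the carmofur experiment, and Cd3e, Cd3g, Csf1r and Tyrobp were at 0 in every group. Of 11 endothelial and blood markers 3 to 6 had any count, at summed levels of 6.66 to 25.1 CPM, with Cdh5 and Kdr at 0 in every group.

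The genes differ enough in sequence for their reads to be told apart. The coding sequences of Msn and Ezr were identical at 73.8% of aligned bases, those of Msn and Rdx at 71.9% and those of Ezr and Rdx at 70.4%, whereas Nf2 was identical to the 3 ERM genes at 62.4% to 63.9%. The stretch that codes for the regulatory threonine of the tail shows this relation, since the 3 proteins share an unbroken run of 24 residues there while the codons have drifted apart. The 63 coding bases around that threonine codon, in capitals, are codon 558 of 577 in Msn, codon 567 of 586 in Ezr and codon 564 of 583 in Rdx. They lie in the last exon of each gene (mm10, GENCODE M21): chrX:96166542-96166604 on the plus strand for Msn, chr17:6739333-6739395 on the minus strand for Ezr and chr9:52086387-52086449 on the plus strand for Rdx. Written 5′ to 3′ in the direction of the gene, the Ezr bases differ from those of Msn at 13 positions and the Rdx bases at 21. The 63 bases start before the shared run, and some codons at their start code for different residues. Not all of these differences are therefore changes of codon for the same residue.
Msn: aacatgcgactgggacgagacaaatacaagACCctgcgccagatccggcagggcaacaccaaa
Ezr: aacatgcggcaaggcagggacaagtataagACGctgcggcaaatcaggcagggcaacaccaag
Rdx: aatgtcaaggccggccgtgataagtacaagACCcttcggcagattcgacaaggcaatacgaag

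The longest stretch of coding sequence that Msn and Ezr have in common is 32 bases long, which bounds the reads that could fit both genes exactly.
Msn and Ezr: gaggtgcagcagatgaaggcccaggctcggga

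Over all annotated transcripts, 14 of 6295 different 31-base words of Msn, 40 of 3259 of Ezr, 0 of 4608 of Rdx, 11 of 6943 of Nf2 and 3 of 16425 of Ahnak also occurred in another gene. Only 2 words were shared between members, Msn and Ezr, and 38 of the Ezr words were shared with the predicted gene Gm5739. Ahnak is instead repetitive within itself: 29.4% of the 16941 positions of its coding sequence start a 31-base word that recurs there. Its most frequent word, shown as an example of this repetition, occurs 14 times.
Ahnak: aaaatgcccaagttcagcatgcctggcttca

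Per transcript length, ezrin was the most abundant linker of these organoids and merlin the scarcest, in all 35 libraries. Levels between genes were compared as CPM per kilobase (kb) of the longest protein-coding transcript, which is 3842 bases for Msn, 3164 for Ezr, 4380 for Rdx, 4720 for Nf2 and 18100 for Ahnak. In the palmitic acid controls the level of Ezr was 48.4 ± 11.8 CPM per kb (SD, n = 3), that of Msn 21.8 ± 7.73, that of Rdx 13.99 ± 3.90, that of Ahnak 13.8 ± 1.92 and that of Nf2 2.20 ± 1.67. Msn lay above Rdx and above Ahnak in each of these 3 libraries, but the ranges of Msn (14.99 to 30.2 CPM per kb) and Rdx (10.6 to 18.3) overlapped, and Rdx and Ahnak differed by less than their spread. The place of Msn depends on the length used, because its exons add up to 6327 bases when all transcripts are joined. Per kb of joined exons, Msn stood at 13.2 CPM per kb, beside 13.2 for Rdx and 12.6 for Ahnak. In the carmofur controls the levels were 65.4 ± 16.9 CPM per kb for Ezr (SD, n = 12), 18.9 ± 5.80 for Msn, 14.1 ± 7.04 for Rdx, 9.02 ± 3.18 for Ahnak and 2.20 ± 1.46 for Nf2. There, Msn was above Rdx in 8 of 12 libraries and above Ahnak in 10 of 12, so the neighbours in this order overlap as well.

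With palmitic acid, moesin and Ahnak transcripts were lower than in the controls in both batches, radixin lay lower without passing the threshold, and ezrin and merlin overlapped with the controls. Moesin stood at 116, 77.6 and 57.6 CPM in the 3 control libraries, at 19.4, 39.3 and 38.0 CPM in batch 1 and at 30.1 and 22.9 CPM in batch 2. Every treated library was thus below every control, and the mean of the controls was 2.599 times that of batch 1 and 3.16 times that of batch 2. In the fit over all genes the log2 fold change of Msn was -1.35 ± 0.31 (SE) in batch 1 and -1.63 ± 0.35 in batch 2. In bulk RNA, fewer cells that express a gene and less of its RNA per cell cannot be told apart.

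Ahnak stood at 290, 225 and 236 CPM in the control libraries, at 141, 134 and 135 CPM in batch 1 and at 123 and 147 CPM in batch 2. The 5 treated libraries lay close together and all below the lowest control. Its log2 fold change was -0.87 ± 0.17 in batch 1 and -0.88 ± 0.20 in batch 2, with control means 1.84 and 1.85 times the treated means.

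Radixin stood at 79.9, 57.6 and 46.3 CPM in the control libraries, at 23.7, 37.5 and 33.7 CPM in batch 1 and at 24.9 and 27.04 CPM in batch 2. Here too every treated library was below every control, yet the log2 fold changes of -0.93 ± 0.32 and -1.22 ± 0.37 did not pass. With both batches taken as 1 group of 5 libraries, the log2 fold change of Rdx was -1.06 and passed.

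Ezrin stood at 182, 111 and 167 CPM in the control libraries, at 155, 135 and 132 CPM in batch 1 and at 127 and 126 CPM in batch 2. All 5 treated libraries lay within the range of the controls, and the log2 fold changes were -0.11 ± 0.19 (95% interval -0.49 to 0.26) and -0.26 ± 0.21 (-0.68 to 0.16). Their lower ends lie above the values fitted for Msn in the same batches (-1.35 and -1.63). This is a description, since the members were chosen with some of these values known.

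Merlin stood at 1.29, 14.5 and 15.3 CPM in the control libraries, at 14.2, 8.14 and 15.4 CPM in batch 1 and at 5.96 and 4.16 CPM in batch 2. The lowest of these values rests on a single count in control 1, which is under the 3-count limit of that library, 3.87 CPM. The log2 fold changes were 0.19 ± 0.68 in batch 1 (95% interval -1.15 to 1.52) and -1.10 ± 0.79 in batch 2 (-2.66 to 0.45), so a change of Nf2 was not detectable at this depth.

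**Figure D1:**
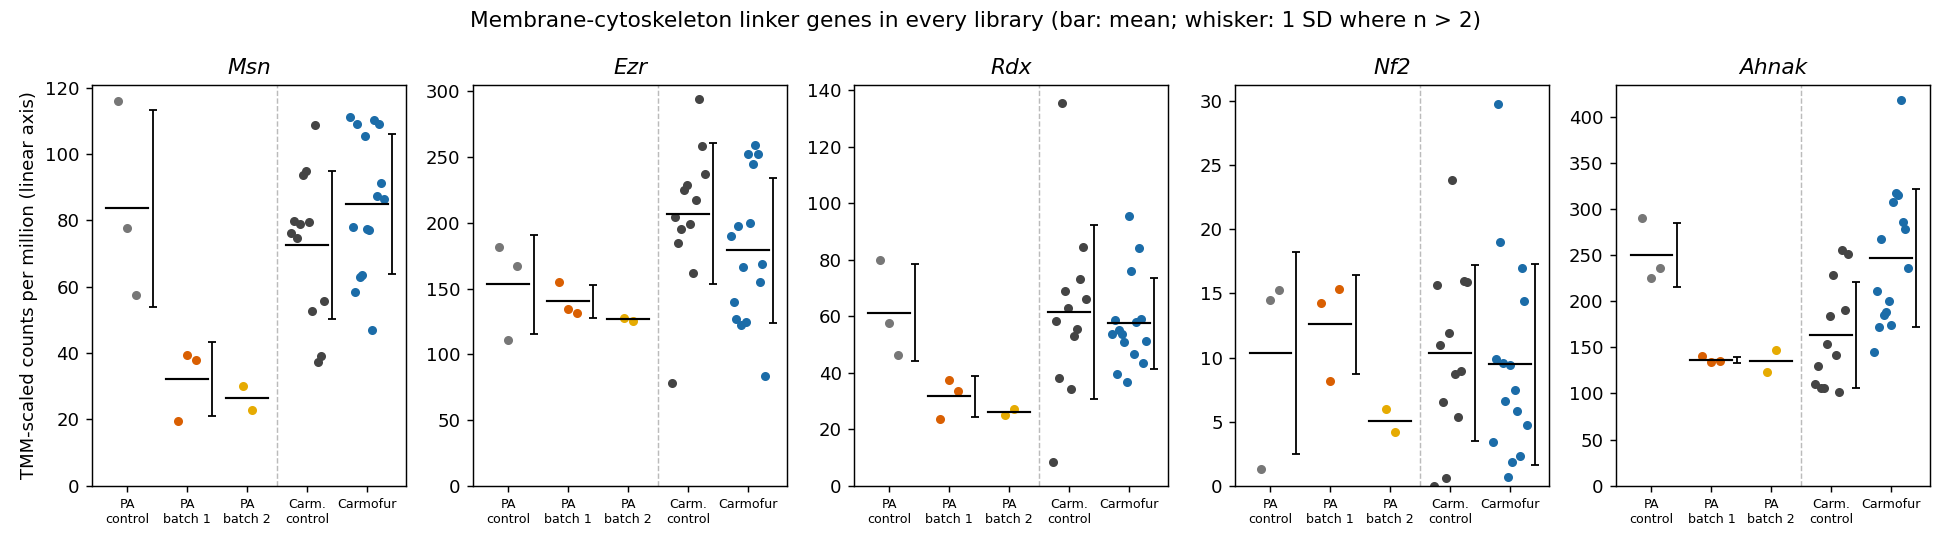
TMM-scaled CPM (linear axis) of the 5 genes in each of the 35 libraries, by group, with the palmitic acid (PA) groups left and the carmofur groups right of the dashed line; points are libraries, bars group means and whiskers 1 SD for groups of more than 2. All 5 palmitic acid libraries of Msn, Rdx and Ahnak lie below their 3 controls, and Ahnak is higher with carmofur, at 247 ± 74.6 CPM against 163 ± 57.5.

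A gene was called where its p in edgeR's quasi-likelihood test, adjusted by Benjamini-Hochberg over all genes, was under 0.05. By that rule 2 of the 5 members (Msn and Ahnak) were called lower in batch 1, beside 0.244% of the 9845 genes tested called lower (0.559% in either direction). In batch 2 the same 2 members were called lower, beside 0.142% called lower (0.325% in either direction). The members were gathered with these calls known, so nothing is read from the counts. Every treated library lay below every control in 3 of 5 members in each batch, a pattern met by 6.12% of genes tested in batch 1 and 9.02% in batch 2. Both batches are compared with the same 3 controls, so their agreement is not independent.

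Between the 2 batches none of the members differed detectably in edgeR's quasi-likelihood test (adjusted p = 1 for each, unadjusted p 0.108 to 0.939, none under 0.05), beside 0.102% of genes called. The log2 difference of batch 2 minus batch 1 was -0.28 ± 0.34 for Msn (95% interval -0.95 to 0.40), -0.15 ± 0.21 for Ezr, -0.29 ± 0.36 for Rdx, -0.01 ± 0.19 for Ahnak (-0.39 to 0.36) and -1.29 ± 0.79 for Nf2 (-2.85 to 0.27). The count of differing members was also 0 with DESeq2 and with limma-voom.

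The moesin call was lost when some single libraries were left out. Without control 1, the shallowest library and the highest in Msn, its log2 fold change was -1.07 ± 0.33 in batch 1 and -1.35 ± 0.37 in batch 2 and passed in neither. The batch 1 call of Msn was also lost without batch 1 replicate 1 (-1.09) or replicate 3 (-1.48). Leaving out a library of batch 2 leaves 1 treated library, assumed to vary like the other groups, and such a fit has less power whatever the fold. The batch 2 call of Msn was lost in both of these fits, with folds about as large (-1.84 without replicate 1 and -1.44 without replicate 2). Ahnak passed in batch 1 whichever of the 8 libraries was left out, at -0.94 to -0.76, and in batch 2 its call was lost in the same 2 fits of 1 treated library (-0.75 and -1.002). With the log2 total count of each library as a covariate, a fit chosen after the data were seen, Ahnak in batch 1 kept its call at -0.74 ± 0.17. In that fit Ahnak in batch 2 (-0.69) and Msn in both batches (-1.14 and -1.31) no longer passed.

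The make-up of the ERM transcripts shifted accordingly, a ratio within each library that does not depend on the scaling between libraries. Moesin made up 28.5%, 29.5% and 19.1% of Msn, Ezr and Rdx together, per kb of transcript, in the palmitic acid controls. In batch 1 its share was 8.50%, 16.7% and 16.7%, and in batch 2 it was 14.6% and 11.5%, so no treated library reached the lowest control. Ezrin, by contrast, took 57.6% ± 8.57 in the controls (SD, n = 3), 74.0% ± 7.24 in batch 1 (n = 3) and 74.9% and 76.6% in the 2 libraries of batch 2. The share of Rdx was 16.7% ± 2.90 in the controls and 12.0% ± 2.56 in batch 1, which is within reach of the spread. These shares restate the fall of Msn beside the level of Ezr and carry no test of their own.

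**Figure D2:**
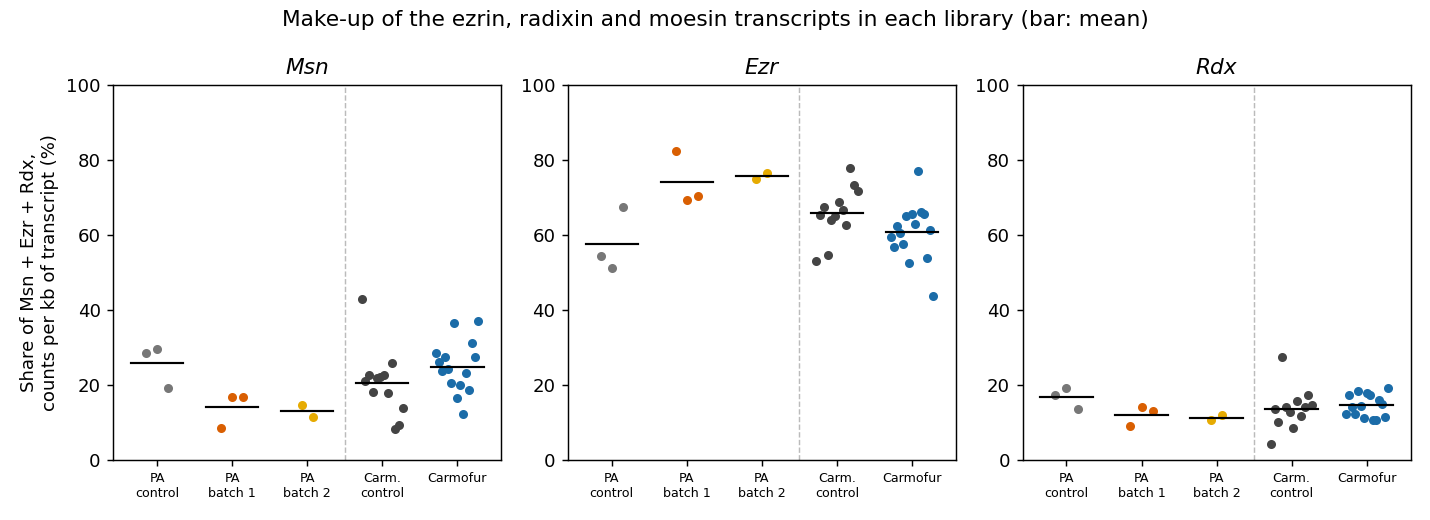
Share of Msn, Ezr and Rdx in their sum (percent, counts per kb of the longest coding transcript) in every library by group; points are libraries and bars group means, PA is palmitic acid and Carm. carmofur. The 5 palmitic acid libraries hold 8.50% to 16.7% moesin, below the 19.1% of the lowest control, and ezrin is the largest share in every library.

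Long transcripts as a class lay lower with palmitic acid, which bears on Ahnak, whose transcript is the longest of the members. The median log2 fold change of batch 1 ran from 0.13 over 569 genes with a longest coding transcript under 1 kb to -0.22 over 514 genes over 8 kb, and that of batch 2 from 0.10 to -0.15. The 200 tested genes set beside Ahnak came from the long end of the range, with transcripts of 10208 to 123179 bases beside its 18100. They are thus not centred on its length. Their medians were -0.25 in batch 1 and -0.15 in batch 2, and Ahnak was lower by a further -0.61 and -0.73. Of these 200 genes 11% and 12% lay lower than Ahnak. Msn was lower than the median of its own 200 length neighbours by -1.36 and -1.62, nearly its whole change. In the carmofur comparison the medians of the length classes stayed between -0.03 and 0.01. The part that transcript length has in the Ahnak change was not tested beyond these values.

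**Figure D3:**
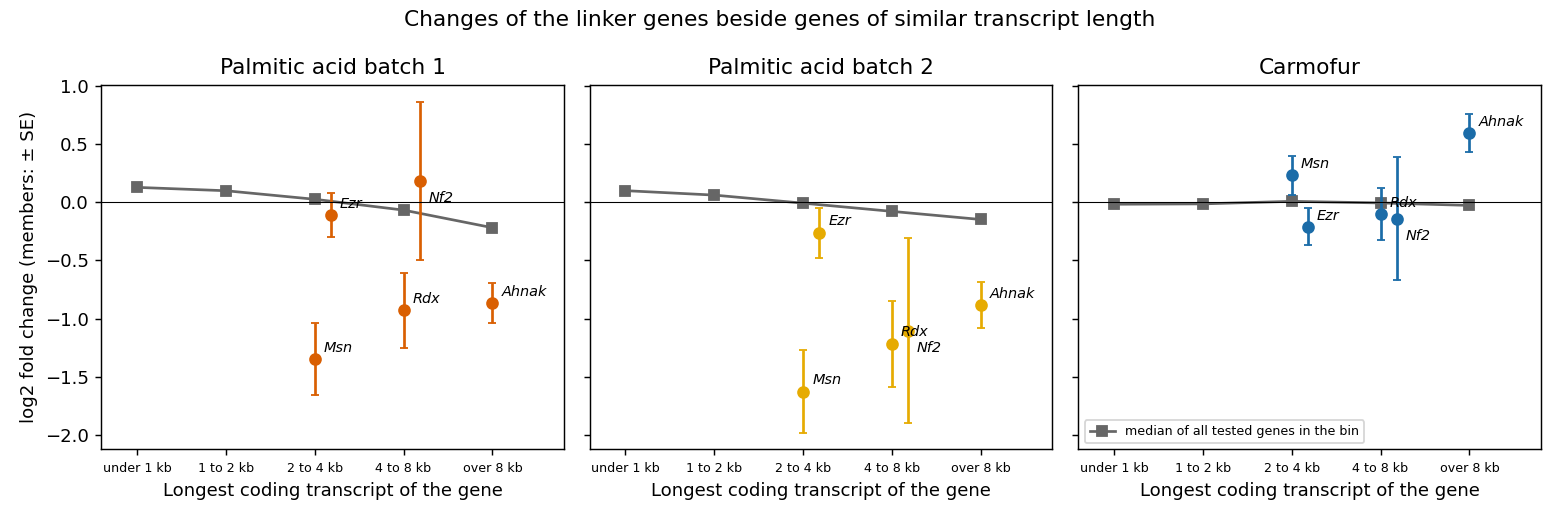
log2 fold change of the 5 genes (points, ± SE) placed in the class of their longest coding transcript, with the median of all tested genes of each class (squares), for palmitic acid batch 1, batch 2 and carmofur. The class medians fall from 0.13 to -0.22 in batch 1 and from 0.10 to -0.15 in batch 2, and lie near 0 with carmofur.

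With carmofur the picture was different: Ahnak was higher than in the controls, and none of the 4 FERM domain members passed. Ahnak had a lowest, median and highest level of 101, 147 and 255 CPM in the 12 controls and of 145, 236 and 418 CPM in the 15 carmofur libraries. Of the carmofur libraries 14 lay above the control median and 7 above every control, so the groups overlap. Its mean was 247 ± 74.6 CPM against 163 ± 57.5 CPM in the controls, a log2 fold change of 0.59 ± 0.16. Ahnak was the 1 member of 5 called, beside 9.02% of the 9992 genes tested (5.21% higher), and as it was chosen with this known nothing is read from the count.

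Moesin had a lowest, median and highest level of 37.2, 77.6 and 109 CPM in the controls and of 47.0, 86.5 and 111 CPM with carmofur, and its log2 fold change was 0.23 ± 0.17 (95% interval -0.10 to 0.56). Ezrin ran from 78.0 over 211 to 294 CPM in the controls and from 83.7 over 168 to 259 CPM with carmofur, at -0.21 ± 0.16 (-0.52 to 0.10). Both pairs of ranges overlap almost entirely. Radixin ran from 8.34 over 60.6 to 136 CPM in the controls and from 36.9 over 53.9 to 95.4 CPM with carmofur, at -0.10 ± 0.22 (-0.54 to 0.34). Merlin ran from 0 over 9.96 to 23.8 CPM in the controls and from 0.659 over 7.48 to 29.8 CPM with carmofur, at -0.14 ± 0.53 (-1.18 to 0.90). The lower end of the Msn interval lies above its values fitted with palmitic acid, a description as the members were chosen with some values known. The interval of Nf2 is too wide to leave out a 2-fold change either way. The moesin share of the ERM transcripts was 20.5% ± 8.92 in the controls (n = 12) and 24.9% ± 6.90 with carmofur (n = 15).

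**Figure D4:**
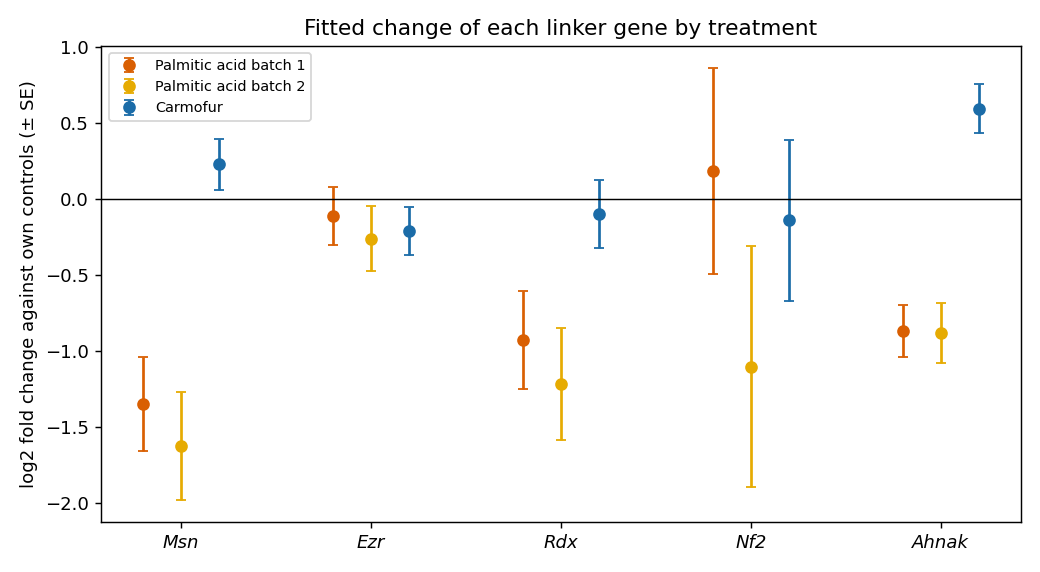
Fitted log2 fold change of each gene against its own controls (points, ± SE) for palmitic acid batch 1 and 2, which share 3 controls, and for carmofur. Msn and Ahnak lie below 0 in both palmitic acid batches and above 0 with carmofur, where the value of Ahnak is 0.59 ± 0.16 and that of Msn, 0.23 ± 0.17, did not pass; Ezr stays within 0.3 of 0 throughout.

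The numbers in the library names of the carmofur experiment fall into 3 blocks that each hold both groups, 3 controls with 6 carmofur libraries in blocks 1 and 2 and 6 with 3 in block 3. The labels do not call them batches. Ahnak was on the same side in each block, with a log2 fold change of 0.75 ± 0.26 in block 1, 0.97 ± 0.26 in block 2 and 0.45 ± 0.24 in block 3. Its mean was 116 CPM in the controls and 195 CPM with carmofur in block 1, 148 and 289 CPM in block 2 and 195 and 267 CPM in block 3, and of the 3 blocks taken singly only block 2 passed. The block 3 controls form sets 7 and 9, each of 3 consecutive libraries, with Ahnak means of 157 and 232 CPM. Over all blocks, the Ahnak means of carmofur sets 2, 3 and 5 (176, 213 and 227 CPM) lay below that of control set 9. Those of carmofur sets 6 and 8 (350 and 267 CPM) lay above it. Moesin was at 0.06 ± 0.30, -0.08 ± 0.29 and 0.62 ± 0.29, and in block 3 its controls themselves split into 1 set of 3 consecutive libraries at a mean of 80.3 CPM and another at 44.0 CPM. Ezrin was at 0.01 ± 0.25, 0.04 ± 0.25 and -0.75 ± 0.25, so its lower mean with carmofur came from block 3, where the controls stood at 228 ± 46.2 CPM and the carmofur libraries at 136 ± 45.6 CPM. There too the control sets 7 and 9 differed, at Ezr means of 193 and 263 CPM. Rdx and Nf2 changed sign between blocks, from 0.55 to -0.43 and from 0.53 to -0.49. A difference of the effect between blocks passed for no member in edgeR's quasi-likelihood test (adjusted p 0.743 for Msn, 0.455 for Ezr, 0.681 for Rdx, 0.984 for Nf2 and 0.861 for Ahnak, lowest unadjusted p 0.0566), beside 1.78% of genes.

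The Ahnak call in the carmofur comparison held for each of the 27 libraries left out in turn (0.51 to 0.65). It was lost when a whole set of 3 consecutive libraries was left out, for control set 1 (0.46), control set 4 (0.54) and carmofur set 6 (0.44), and when the counts of each set were summed to give 4 against 5 samples (0.60). Carmofur set 6 held the 3 highest Ahnak levels of the experiment, 315 to 418 CPM.

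Depth moved with Ahnak in these libraries. Median total counts were 6321271 with carmofur and 4795872 in the controls. With the group means taken out, the log2 CPM of Ahnak correlated with the log2 total count over the 27 libraries at Pearson's r = 0.649 (permutation test within groups, 2-sided p = 0.00024, adjusted over the 5 members 0.0012) and Spearman's rho = 0.639 (p = 0.00056, adjusted 0.0028). Without the 2 libraries farthest from the median depth r was 0.631, and within blocks 1, 2 and 3 it was 0.528, 0.716 and 0.598. The group means taken out there were those over all blocks, so differences between the groups of a block remain in these r. The permutation moved libraries across blocks and sets, so its p-values take libraries of the same set as independent, which was not tested. Of the other 4 members, Nf2 had r = 0.478 (permutation p = 0.019, adjusted 0.0475) but rho = 0.317 (p = 0.114, adjusted 0.285), and r = 0.297 without those 2 libraries, so its relation rests on them. For Msn, Ezr and Rdx r was -0.139, 0.303 and 0.391, with adjusted permutation p of 0.511, 0.165 and 0.134. With the log2 total count as a covariate, a fit chosen after the data were seen, the carmofur log2 fold change of Ahnak was 0.48 ± 0.14 and still passed.

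Annexin A2 and S100A10, the partners of Ahnak at the membrane, rose with carmofur as well. They were the 2 called of 7 tested genes on a list of Ahnak partners and relatives, beside 9.02% of all genes called, and the other 5 did not pass, and the median log2 fold change of the list was 0.37 beside 0.00 over all genes tested. Annexin A2 (Anxa2), a calcium-dependent membrane-binding protein, rose by 0.44 ± 0.07 (edgeR adjusted p = 1.02e-05), from 2128 ± 186 CPM in the controls to 2889 ± 437 CPM. All 15 carmofur libraries lay above the control median of Anxa2 and 12 above every control. S100a10, the S100 protein that binds annexin A2, rose by 0.37 ± 0.10 (edgeR adjusted p = 0.0098), from 837 ± 84.5 to 1083 ± 259 CPM, with 13 of 15 above the control median and 8 above every control. The rise of S100a10 was uneven over the blocks, with ratios of the means of 1.02, 1.62 and 1.26, while those of Anxa2 were 1.34, 1.57 and 1.19 and those of Ahnak 1.68, 1.95 and 1.37. Library by library, with group means taken out, the log2 CPM of Ahnak correlated with that of S100a10 at r = 0.30 and with that of Anxa2 at r = 0.20 over the 27 libraries, a description that rests on shared libraries and depth. With palmitic acid 0 of the 7 passed in edgeR's test, 0 had an unadjusted p under 0.05 and DESeq2 and limma-voom called 0: Anxa2 was at -0.12 ± 0.11 and -0.14 ± 0.12 in batches 1 and 2, and S100a10 at -0.22 ± 0.12 and -0.19 ± 0.13. S100a10 lost its carmofur call with limma-voom (0.28, edgeR's value being 0.37), without library sets 5, 6 or 9 (0.30, 0.26 and 0.29) and without 3 libraries that stand apart from the rest, control 1 and carmofur 8 and 10 (0.28). With the sets summed neither S100a10 (0.36) nor Anxa2 (0.45) passed.

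**Figure D5:**
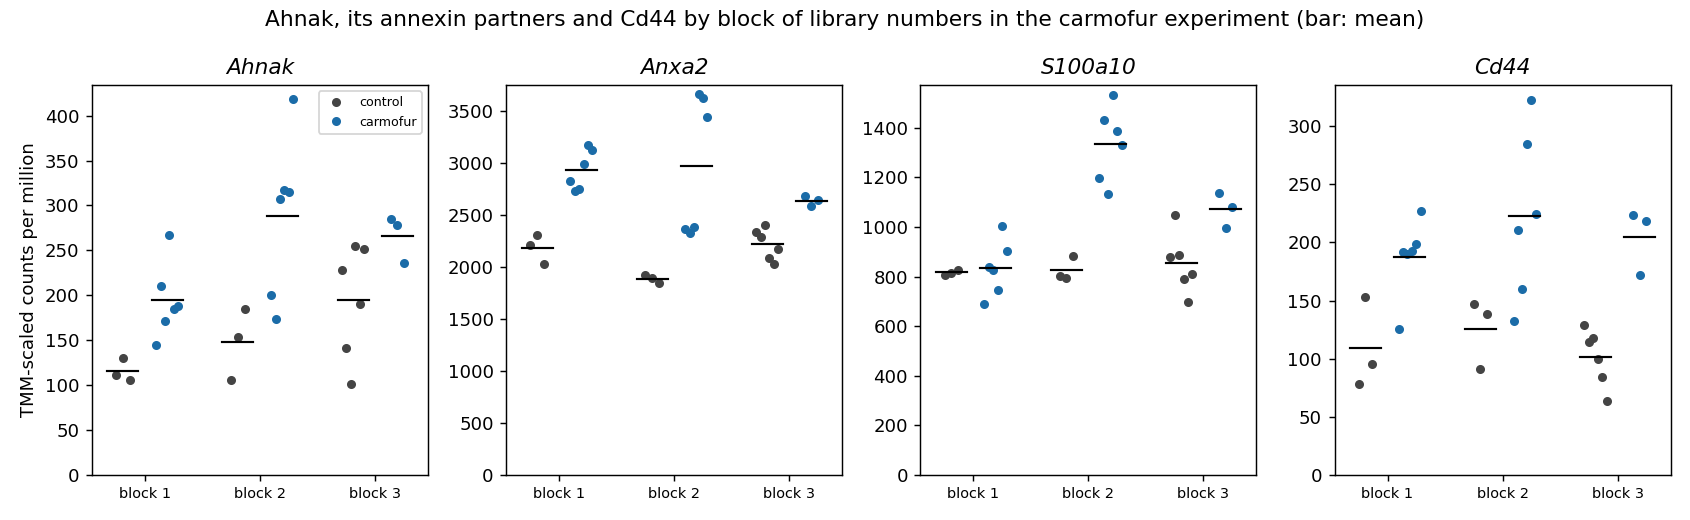
TMM-scaled CPM of Ahnak, Anxa2, S100a10 and Cd44 in the 27 libraries of the carmofur experiment, controls and carmofur side by side within each of the 3 blocks of library numbers; points are libraries and bars means. Ahnak, Anxa2 and Cd44 have higher carmofur means in every block, and S100a10 is level in block 1, where the ratio of means is 1.02.

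A list of ERM scaffolds and membrane partners also holds microvillar proteins such as Pls1, so it is not a list of direct ERM binders only. With carmofur 5 of its 18 tested genes rose, 1 fell and 12 did not pass. Over all genes tested, 9.02% were called (5.21% higher). The list median was 0.28 beside 0.00 over all genes. Cd44, the hyaluronan receptor whose cytoplasmic tail binds ERM proteins, rose by 0.91 ± 0.14 (edgeR adjusted p = 1.01e-05), from 109 ± 28.5 to 205 ± 51.3 CPM, with 13 of 15 carmofur libraries above every control. Cd9, a tetraspanin, rose by 0.44 ± 0.07, from 1514 ± 150 to 2058 ± 271 CPM, with 14 of 15 above every control. Both kept their call under every alternative run for them. The adhesion molecule Ceacam1 (0.59 ± 0.14) and the microvillar actin bundler Pls1 (0.49 ± 0.12) rose too, but neither passed with the sets summed. Prom1, a protein of membrane protrusions (0.51 ± 0.16), rose and Bsg, the chaperone of lactate transporters (-0.53 ± 0.17), fell, and these 2 are named after their values were seen. In the palmitic acid batches 0 of the 16 tested genes of this list passed in edgeR's test, with list medians of -0.24 and -0.23 beside 0.01 and -0.01 over all genes. At an unadjusted p under 0.05 there were 4 and 6 of them, and DESeq2 and limma-voom called 0 as well.

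Of other genes with a FERM domain, 0 of 23 tested passed with carmofur in edgeR's test, beside 9.02% of all genes. In each palmitic acid batch 0 of 22 passed. The list medians were 0.13 with carmofur and -0.18 and -0.19 in batches 1 and 2. In the same order, 1, 1 and 5 of these FERM domain genes had an unadjusted p under 0.05. DESeq2 called 1 with carmofur where limma-voom called 0. Of 26 genes of the Hippo pathway, into which merlin feeds, only 1 was called with carmofur, beside 9.02% of all genes. This was the kinase Stk3, lower by -0.52 ± 0.15 (edgeR adjusted p = 0.0227), from 75.8 ± 13.7 to 52.9 ± 13.1 CPM. That call was lost with the sets summed (-0.48), with the depth covariate (-0.46), with the replicate number as a block (-0.46) and without any of 5 sets (at -0.50 to -0.45). In edgeR's test 0 of the 26 passed with palmitic acid, where the medians were -0.03 and 0.00, with 2 and 3 at an unadjusted p under 0.05 and 0 called by DESeq2 or limma-voom.

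Spectrins, ankyrins and other links between membrane and cytoskeleton had list medians of -0.38 in batch 1 and -0.32 in batch 2 with palmitic acid, with 24 and 25 of 34 tested genes below 0. In edgeR's test 0 of them were called, with 5 and 6 at an unadjusted p under 0.05, and DESeq2 and limma-voom called 0. This list holds many long transcripts, and the part of transcript length in its median was not tested. With carmofur 1 of 32 rose and 1 fell, beside 9.02% of all genes called in either direction (5.21% higher). Macf1, the giant crosslinker of microtubules and actin, rose by 0.93 ± 0.29 (edgeR adjusted p = 0.0355), from 16.6 ± 8.14 to 31.9 ± 8.33 CPM, a call lost without any of 8 single libraries (at 0.85 to 0.92), without any of 5 library sets (at 0.85 to 0.96) and with the sets summed (0.87), so the fold moved little where the call was lost. Actg1, cytoplasmic gamma-actin, fell by 0.49 on the log2 scale (SE 0.07, edgeR adjusted p = 2.39e-06), from 1228 ± 146 to 874 ± 104 CPM, with 14 of 15 carmofur libraries below every control.

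Of the markers of other cell types, only 2 mesenchymal, 1 immune and 1 endothelial or blood marker were tested with carmofur. Of these the mesenchymal marker Fn1 (fibronectin) was the only called gene, beside 9.02% of all genes called. It was higher by 1.11, at 28.9 ± 13.5 CPM in the controls and 62.2 ± 21.0 CPM with carmofur. Among the other mesenchymal markers Col1a1 and Col1a2 were at 0 in both groups. Single carmofur libraries reached 4.29 CPM for Pdgfra, 3.47 for Acta2 and 0.389 for Col6a2, against at most 0.255, 0 and 0 in the controls. The other way, single controls reached 6.56 CPM for Dcn, 5.1 for Sparc and 0.273 for Col3a1, against at most 0.222, 1.07 and 0 with carmofur. Medians of these genes were 0 in both groups, except for Sparc at 0.26 and 0.43 CPM. The median of Vim was 23.2 CPM in the controls and 16.9 CPM with carmofur. The part of mesenchymal cells in the level of Fn1 was not tested. The moesin gene is also active in leukocytes and endothelium. In the palmitic acid experiment the macrophage marker Cd68 had a median of 40.0 CPM in the controls, 26.7 in batch 1 and 28.1 in batch 2, and the endothelial marker Pecam1 one of 9.02, 9.56 and 10.1 CPM. Of the 15 immune markers only 1 was tested in the palmitic acid fits, and it passed in neither batch. Itgam, Cd52, Vwf, Tie1 and Esam reached at most 2.58 CPM in any of these 8 libraries. Ptprc was at 0 in the controls and in batch 2 and reached 2.48 CPM in batch 1. Cd79a was at 0 in the controls and in batch 1 and reached 1.66 CPM in batch 2. Tyrobp, C1qa, C1qb, Cdh5, Kdr, Cd3e and Csf1r were at 0 in all 8 libraries. The part of such cells in the Msn change was not tested.

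The 2 treatments were also compared directly, each against its own controls, in a fit of all 35 libraries with 14052 genes tested. The effect of carmofur minus that of palmitic acid batch 1 was 1.60 ± 0.40 on the log2 scale for Msn and 1.47 ± 0.35 for Ahnak. Both were called, which is a description since they were chosen with their changes known, beside 0.548% of genes called higher and 0.69% in either direction. For Rdx the difference was 0.85 ± 0.50 (95% interval -0.14 to 1.84), for Ezr -0.09 ± 0.35 (-0.77 to 0.59) and for Nf2 -0.36 ± 1.18 (-2.68 to 1.962), and none of these passed. The treatments were run as separate experiments of unlike depth, so treatment and experiment cannot be told apart in this contrast. With batch 2 in place of batch 1 neither Msn (1.87) nor Ahnak (1.47) passed, and Msn was called in 21 of 35 and Ahnak in 28 of 35 fits with a library left out.

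Within groups, ezrin varied together with radixin and Ahnak from library to library, and moesin with none of these 3. Over the 35 libraries, with the 5 group means taken out, the log2 CPM of Ezr and Rdx correlated at r = 0.63 (Spearman's rho 0.48) and that of Ezr and Ahnak at r = 0.46 (rho 0.55), whereas Msn was at -0.14 with Ezr, -0.02 with Rdx and -0.23 with Ahnak. These values describe libraries that share depth and composition. Carmofur control 1, the shallowest library of its experiment, had the lowest Ezr (78.0 CPM) and the lowest Rdx (8.34 CPM) there. The part of that library in the r of Ezr and Rdx was not tested. Among 4468 genes, the patterns most like that of Msn by Pearson's r were those of the co-chaperone Dnaja1 (r = 0.59), the retromer subunit Vps26a (0.58) and Rsrc2 (0.57), with rank correlations of 0.50 to 0.59. Those most like Ezr were the glutathione transferase Gsta3 (r = 0.80, rho 0.65), Smap1 (0.70, rho 0.37) and the glycosyltransferase Galnt3 (0.70, rho 0.46), and those most like Rdx were Ube3c (0.79, rho 0.46), Htatip2 (0.78, rho 0.56) and Tspan4 (0.76, rho 0.38). The rank correlations of these 6 genes were below their r, and whether a few libraries of extreme values set the likeness was not tested. For Ahnak they were Eif1b (r = 0.72, rho 0.75), the small GTPase Arf2 (0.70, rho 0.67) and the mitochondrial mt-Nd4 (0.69, rho 0.65). Nf2 was below the 10 CPM set for this comparison.

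The promoters of Msn and Ahnak, the members called in both palmitic acid batches, are shown with the motifs found in the 250 bases before the start of each gene (RefSeq, GRCm38.p6). Sequences searched on both strands, overlaps allowed, were CACGTG (an E-box), GGAATG (the core bound by TEAD factors), GGGCGG (a GC box), TGANTCA (an AP-1 site) and the CArG box bound by SRF. Matches are in capitals, written 5′ to 3′ on the strand of the gene. The Msn window, chrX:96095795-96096044 on the plus strand, held 1 CACGTG and 3 GGGCGG, and the Ahnak window, chr19:8989034-8989283 on the plus strand, 1 GGAATG and 3 GGGCGG.
Msn: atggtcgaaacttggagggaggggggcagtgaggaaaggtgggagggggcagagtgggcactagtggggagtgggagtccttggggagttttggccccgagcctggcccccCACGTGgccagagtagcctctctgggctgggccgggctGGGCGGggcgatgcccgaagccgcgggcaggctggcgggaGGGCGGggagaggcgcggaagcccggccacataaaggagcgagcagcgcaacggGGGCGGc
Ahnak: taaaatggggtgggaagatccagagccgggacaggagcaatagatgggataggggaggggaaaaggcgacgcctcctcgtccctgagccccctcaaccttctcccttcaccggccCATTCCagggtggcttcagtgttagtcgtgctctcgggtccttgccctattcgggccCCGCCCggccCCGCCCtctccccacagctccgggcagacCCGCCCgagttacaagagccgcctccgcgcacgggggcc

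Of 32851 windows of this length, 6.02% held CACGTG, 12.6% GGAATG, 32.7% GGGCGG, 6.75% TGANTCA and 1.47% a CArG box. GGGCGG, the motif that the Msn and Ahnak windows have in common, also occurred in those of Ezr (2 matches, with 1 TGANTCA) and Nf2 (1 match), whose levels were not called. The 2 windows of Rdx held none of these letters. A match is a description of the letters and not of binding.

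By position (mm10, GENCODE M21), Msn (ENSMUSG00000031207) spans chrX:96096042-96168552 on the plus strand, Ezr (ENSMUSG00000052397) chr17:6738041-6782784 on the minus strand and Rdx (ENSMUSG00000032050) chr9:52047173-52088735 on the plus strand. Nf2 (ENSMUSG00000009073) spans chr11:4765845-4849536 on the minus strand and Ahnak (ENSMUSG00000069833) chr19:8989284-9076914 on the plus strand. They lie on 5 different chromosomes.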

How the data were processed

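Estimated counts per gene, deposited by the authors as 1 table of whole numbers, were made with mm10 by Salmon 1.3.0 according to the submitters' processing notes. How transcripts were joined to genes, and with which annotation, is not given in the sources used here. Libraries were strand-specific and poly(A)-selected, per the labels' protocols. The members and gene lists were chosen with earlier results of these data known. edgeR 4.0.16 in R 4.3.3 was used: TMM scaling, default expression filter, robust quasi-likelihood F test, Benjamini-Hochberg adjustment over all genes at 0.05. Palmitic acid libraries (8), carmofur libraries (27) and, for the difference of effects, all 35 were fitted apart. A standard error is the log2 fold change over the square root of F. Unnamed genes (1243, 0.0216% of counts) were kept. The tests were also run on counts simulated for independent libraries, which cannot show an effect of library sets or blocks. The list of ERM regulators is not reported here. Gene models and coding sequences are GENCODE M21, promoters RefSeq. Named beside the members are, from each list, genes called with palmitic acid and up to 4 called genes of lowest p with carmofur, and 3 genes of the most like pattern per member with at least 10 CPM, among genes of at least 20 CPM. Alternatives included DESeq2 1.42.0 and limma 3.58.1 voom. No 2 libraries of the same group agreed within sampling noise (lowest chi-square per degree of freedom 7.87 over 178 pairs within groups). Pairs between groups were not checked.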

Additional observations from a re-analysis of the deposited data

Results flagged for a closer look

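Msn and Ahnak were called in the contrast of the 2 treatments. For Msn the effect of carmofur minus that of palmitic acid batch 1 was 1.60 ± 0.40 on the log2 scale, with group means of 83.7 and 32.2 CPM in the palmitic acid controls and batch 1 and of 72.6 and 85.0 CPM in the carmofur controls and carmofur libraries. For Ahnak it was 1.47 ± 0.35, with means of 250 and 136 CPM and of 163 and 247 CPM in the same order. Both genes were chosen with their changes in these comparisons known, so the calls describe them and are no independent test of a difference. With batch 2 in place of batch 1 neither was called (1.87 and 1.47), and with a library left out Msn was called in 21 of 35 fits and Ahnak in 28 of 35. Treatment and experiment cannot be told apart.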

How the results depend on the processing

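Under RLE size factors, library-size scaling, DESeq2, limma-voom and a mean count of at least 10, the members called in each comparison were as many as in the main analysis. With the replicate number as a block (replicate block) Msn was at -1.32 and -1.68 and Ahnak at -0.87, -0.90 and 0.57 for palmitic acid batches 1 and 2 and carmofur, all still called, and Rdx with carmofur reversed to 0.0598. The numbers do not pair the libraries: deviations of same-numbered libraries correlated at -0.04 to 0.03 over 3 pairs in palmitic acid batch 1, and over 0.1 in 2 of 12 carmofur pairs. Members called numbered 0 of the 1 with carmofur for the counts summed by library set and without library set 1, 4 or 6, where Ahnak was at 0.60, 0.46, 0.54 and 0.44. For the difference of effects they numbered 1 without a filter, which was Ahnak, while Msn at 1.61 was not called. They numbered 0 with palmitic acid batch 2 in place of batch 1 (Msn 1.87, Ahnak 1.47, Ezr 0.0542, Nf2 0.933, the last 2 reversed). With the log2 total count as a covariate they numbered 1 in palmitic acid batch 1, which was Ahnak, while Msn at -1.14 was not called. They numbered 0 in batch 2 (Msn -1.31, Ahnak -0.69). In that fit Ezr (0.0223) and Nf2 (-0.11) in batch 1 and Ahnak between batches (0.0480) changed sign. Ahnak between batches also did so with library-size scaling (0.000415) and without a filter (0.0127), Nf2 with carmofur without library set 5 (0.0469) or 6 (0.0182), Nf2 with the batches merged (-0.23) and Rdx with carmofur without library set 4 (0.12). The cause was not tested.

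With 1 library left out at a time, members called were 1 to 2 in palmitic acid batch 1, 0 to 2 in batch 2 and 0 to 2 for the difference. Msn ranged from -1.57 to -1.07 in batch 1, from -1.84 to -1.35 in batch 2 and from 1.31 to 1.81 for the difference, where Ahnak ranged from 1.37 to 1.54; Ahnak in batch 2 ranged from -1.002 to -0.75. Values that were never called crossed 0: Ahnak between batches (-0.14 to 0.11), Ezr in batch 1 (-0.313 to 0.0124) and in the difference (-0.20 to 0.10), Nf2 in batch 1 (-0.25 to 0.50), with carmofur (-0.378 to 0.0312) and in the difference (-0.72 to 0.13), and Rdx with carmofur (-0.216 to 0.0532).

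All genes called with carmofur numbered 901, against 3541 without a filter and 334 with sets summed. For the difference they numbered 97, against 204 with DESeq2, 239 with limma-voom, 12 with batch 2 and 22 to 118 with a library left out. In palmitic acid batch 1 they numbered 55, against 35 with the depth covariate and 21 to 72 with a library left out, in batch 2 32 against 55 with DESeq2, and between batches 10 against 19 without a filter and 2 to 14 with a library left out. The shallow palmitic acid control and the low counts of Nf2 limit what these fits can resolve. The depth covariate, the fit without 3 libraries and the exchange of the batches were chosen after the data were seen.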
